A study of Mus musculus with 18 samples.

Results

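Collagen chain genes were examined in RNA of the subventricular zone (SVZ), the stem cell niche of the adult mouse forebrain, after knockin of the *Idh1* R132H mutation. Members were taken by symbol: every probe of the Illumina Mouse WG6-v2 array that carries 1 gene symbol of the form Col, a number, a and a number. This gave 41 genes with 91 probes, of 19057 genes with 34885 single-symbol probes on the array. A gene was tested where a probe had a detection p under 0.05, that is a signal above that of negative control beads, on at least 9 of 18 arrays. That left 15 collagen genes among 11465 tested genes, and 26 collagen genes were not tested. RefSeq lists 3 further mouse chains of this family, *Col6a3*, *Col12a1* and *Col20a1*, for which the array has no probe with the single symbol.

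Tam-Idh1-KI mice carried *Nes-Cre*ER(T2) and were heterozygous for the floxed mutant allele, *Idh1* fl(R132H)/+, on a c57bl6 background, and received tamoxifen at 50 mg/kg on 5 days at 5 to 6 weeks of age. Their 9 controls were *Idh1*+/+ littermates, with or without the Nes-Cre transgene, and were given tamoxifen too. One array was hybridised per mouse at 5 to 9 months of age, 6 per group on day 1 and 3 per group on day 2, with 5 females and 4 males among Tam-Idh1-KI mice and 3 females and 6 males among controls. The median age was 5 months in Tam-Idh1-KI mice and 6 months in controls, and age was not in the main fit. Cre acted only in cells that express nestin, the floxed allele was leaky by the study's own account, and the dissected tissue was a mixture of recombined and other cells from mice with enlarged ventricles. In such tissue fewer cells of a type and less RNA per cell cannot be told apart.

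Collagens are built of α chains with a glycine in every triplet of residues, which wind around each other into a helix. Fibrillar chains form the tensile fibrils of connective tissue, type IV chains the sheet of basement membranes, type VI chains beaded microfilaments at the cell surface, and transmembrane chains are anchored in the plasma membrane with a collagenous ectodomain. In brain, collagen lies mainly in the meninges, in the basement membranes of vessels and, in the SVZ, in basement membrane extensions that reach toward the ependyma. New chains are hydroxylated on proline and lysine by enzymes that use α-ketoglutarate, and 2-hydroxyglutarate, the product of mutant IDH1, can compete with it. The study found no clear sign of altered collagen prolyl hydroxylases in Tam-Idh1-KI mice. RNA levels do not measure hydroxylation. The comparison asks only whether RNA of the genes that encode the chains, or of those that process them, was at another level in mutant SVZ.

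*Col6a5*, which encodes the α5 chain of type VI collagen, was the only collagen gene called at an adjusted p under 0.05, and it was higher in Tam-Idh1-KI SVZ. Across the array 0.0959% of tested genes were called higher and 0.0785% lower, or 0.174% in either direction. Of the 15 tested collagen genes, 1 was called higher and 0 lower by limma, while 5 higher and 1 lower had an unadjusted p under 0.05, against 6.43% and 3.14% of all genes, or 9.57% in either direction. The sign was the same on both hybridisation days for 12 of them, against 57.3% of all genes. Estimates were positive for 11 and negative for 4, with a median log2 fold change of 0.10, against 54.5% positive and a median of 0.013 over all tested genes. These log2 fold changes are Tam-Idh1-KI over control on the scale of background-corrected, quantile normalized signal with an offset of 16, which understates the change of dim genes.

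Type VI chains are encoded partly by a cluster in which *Col6a4*, *Col6a5* and *Col6a6* lie one after another on the same strand of chromosome 9. The 250 bases before the start that the table lists for each gene are shown because only the middle gene was detected, its neighbours on 0 arrays. The gene records also include transcripts that start further upstream. Sequences are from RefSeq on GRCm38.p6, minus strand, written 5′ to 3′. Capitals mark matches on either strand to a GC box (GGGCGG) or a CCAAT box (CCAAT).
Col6a4, chr9:106096692-106096941: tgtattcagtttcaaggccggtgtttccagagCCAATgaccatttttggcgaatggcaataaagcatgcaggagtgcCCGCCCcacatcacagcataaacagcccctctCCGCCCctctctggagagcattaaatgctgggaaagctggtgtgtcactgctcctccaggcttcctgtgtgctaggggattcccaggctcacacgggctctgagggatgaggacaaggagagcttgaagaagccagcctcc
Col6a5, chr9:105960644-105960893: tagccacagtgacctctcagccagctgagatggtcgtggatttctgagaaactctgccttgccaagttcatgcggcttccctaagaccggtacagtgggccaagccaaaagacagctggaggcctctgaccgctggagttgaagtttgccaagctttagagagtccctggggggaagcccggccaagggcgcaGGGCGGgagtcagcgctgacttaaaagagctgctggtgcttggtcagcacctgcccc
Col6a6, chr9:105828086-105828335: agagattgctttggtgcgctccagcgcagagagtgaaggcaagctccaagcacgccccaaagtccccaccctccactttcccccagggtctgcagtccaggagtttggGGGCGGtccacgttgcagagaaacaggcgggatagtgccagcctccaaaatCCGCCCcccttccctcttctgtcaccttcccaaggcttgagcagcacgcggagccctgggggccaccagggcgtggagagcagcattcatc
The *Col6a5* window held 1 GC box, that of *Col6a4* 2 GC boxes and 1 CCAAT box, and that of *Col6a6* 2 GC boxes. No match to a TATA box (TATAAA) lay in any of them. Over 32851 such windows in the table, 32.7% held a GC box, 33.8% a CCAAT box and 12.4% a TATA box. The windows held 55.2%, 58.8% and 62.4% G or C for *Col6a4*, *Col6a5* and *Col6a6*. These matches are descriptions of the letters, and 33 of the 41 members had a window in the table.

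Fibrillar collagens, the largest type on the array, were mostly undetected. Of 11 fibrillar genes with 27 probes, 1 gene was tested, and 15 of the probes were detected on 0 arrays. *Col1a1* and *Col3a1*, the main chains of interstitial fibrils, were detected on 0 arrays, as were *Col5a2* and *Col24a1*. *Col1a2*, the partner of *Col1a1* in type I collagen, reached 8 arrays, 4 of each group, and *Col5a3* also 8, with 6 Tam-Idh1-KI and 2 control arrays. *Col11a2*, *Col11a1*, *Col27a1* and *Col2a1*, known best from cartilage, were detected on 7, 5, 5 and 3 arrays by their most often detected probe. Nearest above the filter of 9 arrays were *Col9a3* with 10 and *Col6a5* with 12, and nearest below it *Col1a2*, *Col5a3*, *Col6a2* and *Col22a1* with 8. A probe under the detection limit gives no evidence that its gene is silent, since probes differ in sensitivity.

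**Figure D1:**
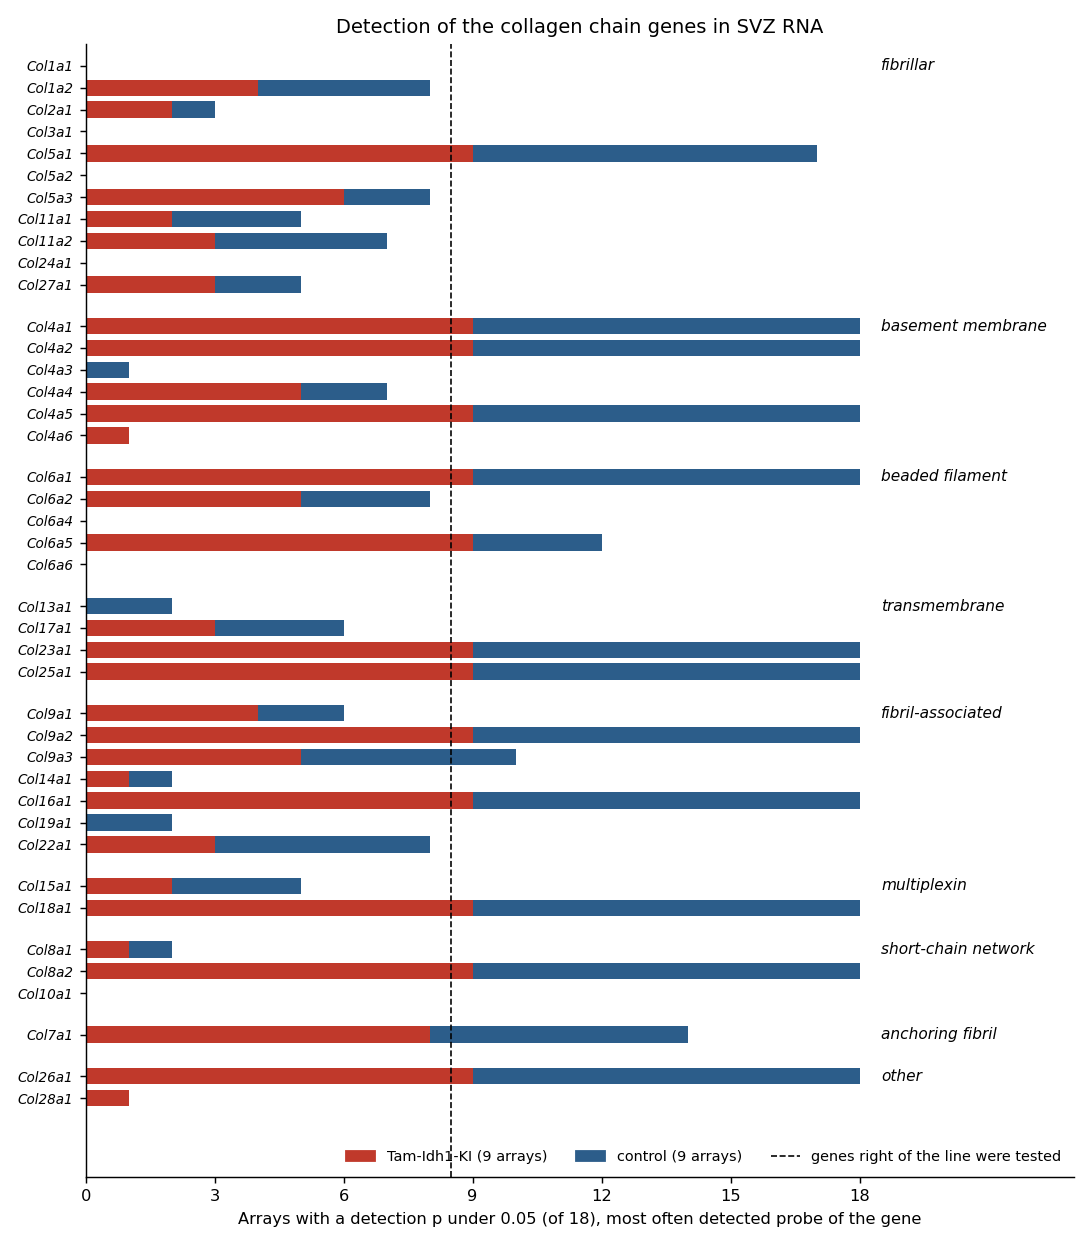
Number of arrays, of 18, on which the most often detected probe of each of the 41 collagen chain genes had a detection p under 0.05, stacked as Tam-Idh1-KI (red) and control (blue) arrays and grouped by type. Genes right of the dashed line, 15 in all, were tested; *Col1a2*, *Col5a3*, *Col6a2* and *Col22a1* stop at 8 arrays, and *Col6a5* was detected on 9 Tam-Idh1-KI and 3 control arrays.

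*Col5a1*, the tested fibrillar gene, encodes the α1 chain of type V collagen, which joins type I fibrils and limits their width. Its normalized log2 signal had a lowest value of 5.74, a median of 6.25 and a highest value of 6.79 in Tam-Idh1-KI mice, against 5.12, 6.00 and 6.30 in controls. The ranges overlapped, and the 3 Tam-Idh1-KI mice of day 2, at 6.44 to 6.79, lay above every control. The log2 fold change was 0.39 (SE 0.12), with an adjusted p of 0.250 by limma, and 8 of 9 Tam-Idh1-KI mice were above the control mean of their day. The signal of control replicate 1 lay apart at 5.12, and the estimate was 0.29 without it.

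Basement membrane chains were detected more often, and 3 of 6 genes were tested. *Col4a1* and *Col4a2*, which together form the type IV network of nearly all basement membranes, start 21 bases apart on opposite strands of chromosome 8 in RefSeq. *Col4a2* had log2 signals of 7.48, 8.20 and 8.51 in Tam-Idh1-KI mice as lowest, median and highest value, and of 7.25, 8.00 and 8.39 in controls. The groups overlapped over both days together, but on day 2 the 3 Tam-Idh1-KI mice, at 7.48 to 8.00, were all above the 3 controls, at 7.25 to 7.39. The log2 fold change was 0.26 (SE 0.10, adjusted p = 0.421 by limma), or 0.16 on day 1 and 0.48 on day 2.

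*Col4a1* had log2 signals of 8.75, 9.02 and 9.52 in Tam-Idh1-KI mice and of 8.47, 8.96 and 9.37 in controls. The ranges overlapped, with the 3 controls of day 2 below every Tam-Idh1-KI mouse and Tam-Idh1-KI replicate 6 above every control. Its log2 fold change was 0.11 (SE 0.11, adjusted p = 0.838 by limma). Its direction differed by day, with -0.039 on day 1 and 0.42 on day 2, where the groups did not overlap (8.79 to 9.07 in Tam-Idh1-KI mice, 8.47 to 8.57 in controls). The interaction of genotype with day reached an unadjusted p of 0.0262 and an adjusted p of 1 over all genes.

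*Col4a5*, an X-linked chain whose human counterpart is mutated in Alport syndrome, had log2 signals of 6.22, 6.47 and 6.81 in Tam-Idh1-KI mice, against 5.85, 6.24 and 6.67 in controls. The ranges overlapped, with 8 of 9 Tam-Idh1-KI mice above the control mean of their day. Its log2 fold change was 0.23 (SE 0.089, adjusted p = 0.404 by limma), and a second probe, detected on 8 Tam-Idh1-KI and 5 control arrays, gave 0.38 (SE 0.17). Its head-to-head neighbour *Col4a6* was detected on 1 Tam-Idh1-KI array.

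The other pair of type IV genes, *Col4a3* and *Col4a4*, whose chains assemble with that of *Col4a5* in kidney glomeruli, stayed under the detection threshold. *Col4a3* was detected on 1 control array. *Col4a4* was detected by one probe on 5 Tam-Idh1-KI and 2 control arrays, and by another on 4 Tam-Idh1-KI and 0 control arrays. All 3 tested basement membrane genes had positive estimates, with a median log2 fold change of 0.23, and 0 of them passed the adjusted threshold.

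Beaded filament chains gave the one call of the family. *Col6a5* was detected on 9 Tam-Idh1-KI and 3 control arrays, so its probe passed the detection filter through the mutant group. The array had 1 single-symbol probe for *Col6a5*, so no second probe could be compared. The log2 signals of *Col6a5* were 5.68, 6.23 and 6.61 in Tam-Idh1-KI mice, and 4.95, 5.32 and 6.00 in controls, as lowest, median and highest value. The groups overlapped slightly, since Tam-Idh1-KI replicates 2 and 5 lay below control replicate 2, the highest control. On day 2 the groups were apart, with 6.15, 6.23 and 6.61 in Tam-Idh1-KI mice and 5.13, 5.32 and 5.43 in controls.

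The log2 fold change of *Col6a5* was 0.86 (SE 0.15), a 1.81-fold difference with a 95% interval of 0.54 to 1.17 on the log2 scale, and the adjusted p was 0.0259 by limma, or 0.0412 over genes with no detection filter. Adjusted over all single-symbol probes with no detection filter, it was 0.0628 by limma, which missed the threshold. All 9 Tam-Idh1-KI mice were above the control mean of their day. The difference was 0.77 on day 1 and 1.04 on day 2, and 0.57 among females and 1.08 among males. These are plain differences of group means, not adjusted for sex or day, so they can differ from the fits of 1 sex given further on. Day 2 held no male Tam-Idh1-KI mouse. Neither the day nor the sex interaction passed.

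The size of this difference depended on the background step. As scanned, the signals of *Col6a5* were 148, 192 and 308 in Tam-Idh1-KI mice, against 137, 152 and 196 in controls, on the linear intensity scale. Without background correction the log2 fold change was 0.26 (adjusted p = 0.0614 by limma), and with same-numbered mice as a replicate block it was 0.83 (adjusted p = 0.104). The adjusted p lay between 0.00467 and 0.0912 when 1 array was left out. It missed the threshold without Tam-Idh1-KI replicate 1, 3, 4 or 9, or control replicate 1, 5, 6 or 8, with log2 fold changes of 0.80 to 0.99 over all 18 omissions.

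The chains with which that of *Col6a5* assembles were not called. A type VI monomer combines the chains of *Col6a1* and *Col6a2* with another, which can be that of *Col6a3* or of *Col6a4*, *Col6a5* or *Col6a6*. *Col6a1* had log2 signals of 8.20, 9.87 and 10.63 in Tam-Idh1-KI mice and 8.25, 9.95 and 10.43 in controls. The groups coincided, at a log2 fold change of 0.022 (SE 0.13, adjusted p = 0.985 by limma), and its other kept probes gave -0.080 and -0.012. *Col6a2* was detected on 5 Tam-Idh1-KI and 3 control arrays, just under the limit for testing, and *Col6a4* and *Col6a6* on 0 arrays.

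**Figure D2:**
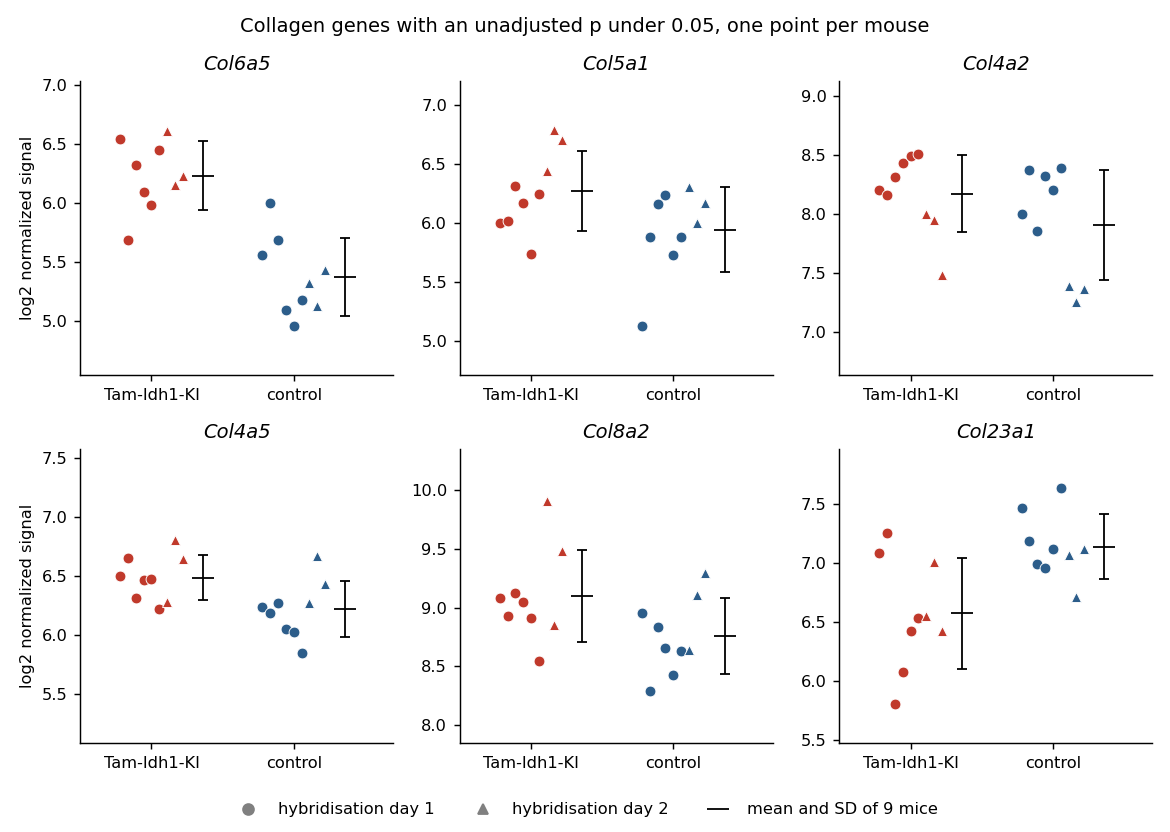
Normalized log2 signal (y axis) of the 6 collagen genes with an unadjusted p under 0.05, 1 point per mouse, with Tam-Idh1-KI left of control, circles for hybridisation day 1, triangles for day 2, and bars for the mean and SD of 9 mice. *Col6a5* lies between 5.68 and 6.61 in Tam-Idh1-KI mice and between 4.95 and 6.00 in controls; the other 5 genes overlap more, and *Col23a1* is the 1 with a negative estimate.

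Transmembrane collagens had the only 2 negative estimates outside the type IX genes. *Col23a1*, whose product is shed from the cell surface and binds integrin, had log2 signals of 5.80, 6.54 and 7.25 in Tam-Idh1-KI mice, against 6.71, 7.12 and 7.64 in controls. Tam-Idh1-KI replicates 1, 2 and 8 lay within the control range and the other 6 below it. The log2 fold change was -0.61 (SE 0.18), with an adjusted p of 0.229 by limma. A second probe detected on all 18 arrays gave -0.25 (SE 0.23), so the probes of this gene differed in size though not in sign.

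*Col25a1* encodes a neuronal collagen first described in amyloid plaques of Alzheimer brain. Its brightest probe had 5.59, 6.19 and 7.15 in Tam-Idh1-KI mice and 5.72, 6.33 and 6.93 in controls. The groups overlapped throughout, with a log2 fold change of -0.18 (SE 0.18, adjusted p = 0.852 by limma). Its 3 other kept probes gave -0.29, -0.65 and -0.47, of which the -0.65 (SE 0.17) came from a probe detected on 6 Tam-Idh1-KI and 8 control arrays (adjusted p = 0.217 over all kept probes by limma). *Col13a1* and *Col17a1*, an adhesion protein of muscle endplates and one of skin hemidesmosomes, were detected on 2 and 6 arrays and were not tested.

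**Figure D3:**
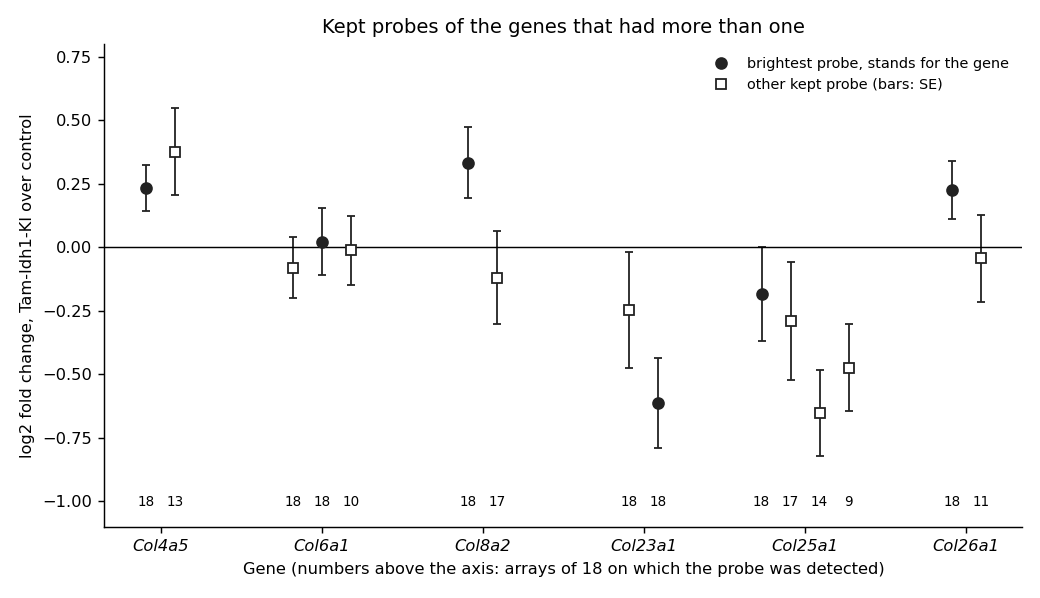
Log2 fold change, Tam-Idh1-KI over control, of each kept probe of the 6 genes that had more than 1, with bars for the SE, filled circles for the brightest probe, which stands for the gene, open squares for the others, and the number of arrays with detection above the axis. All 4 probes of *Col25a1* are negative, at -0.18 to -0.65, while the probes of *Col6a1*, *Col8a2* and *Col26a1* fall on both sides of 0.

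The types outside the fibrils and networks named so far held 7 tested genes, and 0 passed the adjusted threshold. *Col8a2*, a short-chain collagen of the corneal endothelial membrane and of vessel walls, had log2 signals of 8.55, 9.04 and 9.90 in Tam-Idh1-KI mice and 8.29, 8.66 and 9.29 in controls. Only Tam-Idh1-KI replicates 7 and 9 exceeded the controls. Its log2 fold change was 0.33 (SE 0.14, adjusted p = 0.463 by limma), and its second kept probe gave -0.12 (SE 0.18). *Col8a1*, its partner chain, was detected on 2 arrays and *Col10a1*, of growth plate cartilage, on 0.

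*Col26a1*, first found in testis and ovary, was at 6.26, 6.62 and 7.20 in Tam-Idh1-KI mice, against 5.98, 6.31 and 6.85 in controls. The groups overlapped on day 1 and not on day 2, with differences of 0.083 on day 1 and 0.70 on day 2. Over both days its log2 fold change was 0.23 (SE 0.11, adjusted p = 0.550 by limma), with -0.043 for its second kept probe. *Col28a1* was detected on 1 Tam-Idh1-KI array.

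Fibril-associated chains, which bind to fibril surfaces without forming fibrils, were near 0. *Col9a2* and *Col9a3*, both of type IX, had log2 fold changes of -0.13 (SE 0.14) and -0.14 (SE 0.15), and *Col16a1*, which occurs in several tissues, 0.10 (SE 0.11). *Col9a3* passed the detection filter by the narrowest margin, on 10 arrays, 5 in each group. *Col9a1*, *Col14a1*, *Col19a1* and *Col22a1* were detected on 6, 2, 2 and 8 arrays and were not tested. *Col18a1*, the source of endostatin and a part of vascular basement membranes, was at 0.035 (SE 0.17), *Col15a1*, its relative, was detected on 5 arrays, and *Col7a1*, of anchoring fibrils, was at 0.089 (SE 0.16). The smallest adjusted p among these tested genes was 0.856 by limma, that of *Col16a1*.

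**Figure D4:**
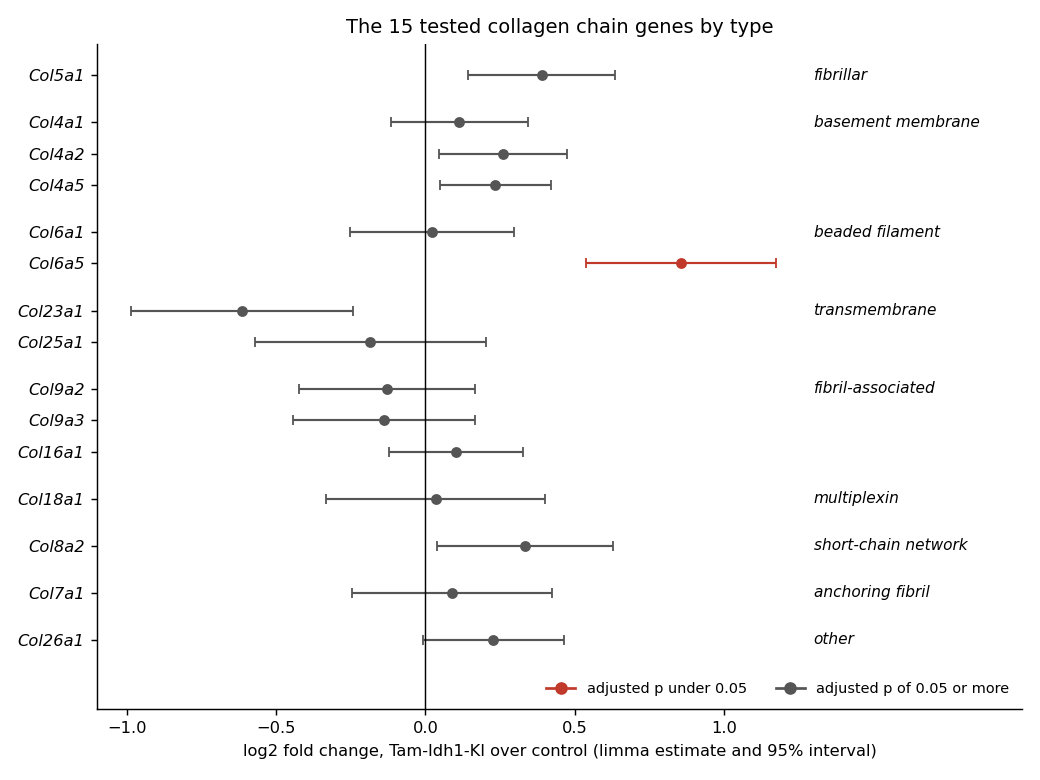
Log2 fold change, Tam-Idh1-KI over control, of the 15 tested collagen chain genes by type, as limma's estimate (point) and 95% interval (bar). *Col6a5* (red, 0.86) is the gene with an adjusted p under 0.05; *Col23a1* is the lowest at -0.61, and the intervals of 9 genes contain 0.

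More collagen genes differed between the hybridisation days than between the genotypes. By limma, 9 of 15 tested collagen genes differed between the days, against 63.8% of all tested genes, with 4 higher on day 2 (36.8% of all genes) and 5 lower (27.1%), a share close to that background. Day 2 mice were also the older ones, and day and age cannot be told apart. *Col6a1* was at 8.20 to 8.81 on day 2 and at 9.66 to 10.63 on day 1, with no overlap (difference -1.60, SE 0.14). *Col4a2* was lower on day 2 as well (-0.71, SE 0.11), while *Col9a3* (1.12, SE 0.16) and *Col18a1* (1.04, SE 0.19) were higher. *Col6a5* did not share in this, at 0.013 (SE 0.17). Sex passed for 0 of the 15 genes.

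**Figure D5:**
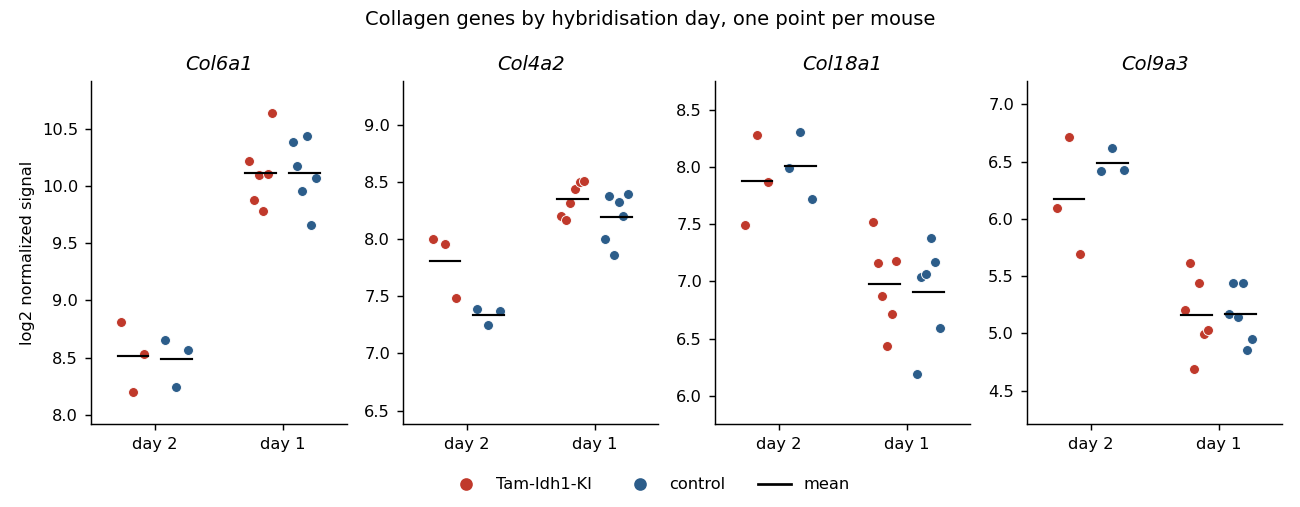
Normalized log2 signal of 4 collagen genes by hybridisation day (day 2 left of day 1), 1 point per mouse, Tam-Idh1-KI in red left of control in blue, with black lines for group means. On day 2 *Col6a1* lies at 8.20 to 8.81 and on day 1 at 9.66 to 10.63, while the groups of a day overlap for *Col6a1*, *Col18a1* and *Col9a3*; for *Col4a2* they are apart on day 2.

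Within day 2 the 3 Tam-Idh1-KI mice lay above all 3 controls for 6 of 15 collagen genes (*Col4a1*, *Col4a2*, *Col5a1*, *Col6a5*, *Col7a1* and *Col26a1*), against 7.13% of all tested genes. Below all controls lay 0 of 15, against 5.84%. The Tam-Idh1-KI mice of that day were 3 females, and the controls 1 female and 2 males. Over both days together, 0 collagen genes had groups without overlap, against 0% of all genes with Tam-Idh1-KI above and 0.0349% with Tam-Idh1-KI below. The interaction of genotype with day was called for 0 of 15 genes (smallest adjusted p = 1 by limma; 2 at an unadjusted p under 0.05, against 2.9%), and that with sex for 0, against 0.00872% of all genes (smallest adjusted p = 0.997; 0 at an unadjusted p under 0.05, against 3.38%).

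Collagen genes were not found to vary together between mice. Each gene's values were centred on its group and day, and the 105 pairs were correlated over 18 mice, with 100000 permutations each. No pair passed after Benjamini-Hochberg adjustment. The highest Pearson r, 0.63 for *Col16a1* and *Col18a1* (permutation p = 0.0144, adjusted p = 0.516, Spearman rho 0.49, permutation p = 0.0582), was 0.59 within day 1 and 0.78 within day 2, and 0.42 without the 2 mice farthest from the median. The transmembrane genes *Col23a1* and *Col25a1* followed with r = 0.58 (permutation p = 0.0388, adjusted p = 0.516, rho 0.58, permutation p = 0.0251), and was 0.61 within day 1, 0.41 within day 2 and 0.74 without the 2 farthest mice. The lowest was -0.57 for *Col5a1* and *Col25a1* (permutation p = 0.0344, adjusted p = 0.516, rho -0.69, permutation p = 0.00707, adjusted p = 0.602), at -0.59 within day 1, -0.37 within day 2 and -0.52 without the 2 farthest mice.

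Genes that fold, process and bind collagen were measured more fully than the chains, and 0 of them passed the adjusted threshold by limma. Of 25 genes of collagen folding and secretion, 20 were tested and 15 were positive, against 54.5% of all tested genes, with a median log2 fold change of 0.030. *Serpinh1*, the collagen chaperone HSP47, averaged 10.51 in Tam-Idh1-KI mice and 10.04 in controls (0.52, SE 0.15, adjusted p = 0.220), and *Tmem38b*, an ion channel of the endoplasmic reticulum, was at 0.25 (SE 0.088, adjusted p = 0.354). Of 15 genes of propeptide cleavage and cross-linking, 6 were tested, 3 positive and 3 negative, with a median of 0.033. *Tgm2*, a transglutaminase, was at 0.31 (SE 0.15) and *Pcolce*, an enhancer of procollagen cleavage, at -0.25 (SE 0.20). *Lox* and its relatives *Loxl2*, *Loxl3* and *Loxl4*, which cross-link collagen, were not among the tested genes.

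Among 20 genes whose products bind fibrils, 10 were tested, 5 in each direction, with a median of 0.096. *Ogn*, a small leucine-rich proteoglycan, averaged 7.10 in Tam-Idh1-KI mice and 6.20 in controls (0.87, SE 0.20, adjusted p = 0.111 by limma), and *Ccn5*, a matricellular protein, 6.60 and 5.30 (1.31, SE 0.38, adjusted p = 0.230). *Ccn5* was detected on 8 Tam-Idh1-KI and 4 control arrays, so it passed the detection filter mainly through the mutant group. Its SD was 1.13 in Tam-Idh1-KI mice and 0.26 in controls. Of 16 collagen receptor genes 8 were tested, 6 positive (against 54.5% of all tested genes), with a median of 0.074. *Antxr1*, a receptor that binds type I and type VI collagen, was at 0.33 (SE 0.11, adjusted p = 0.333), and *Mrc1*, the mannose receptor of macrophages, at 0.52 (SE 0.24, adjusted p = 0.508). Of 21 genes of collagen degradation 12 were tested, 9 positive, with a median of 0.11. *Ctsk*, a collagen-cleaving cathepsin, was at 0.47 (SE 0.18, adjusted p = 0.421) and *Timp3*, an inhibitor of metalloproteinases, at 0.17 (SE 0.086, adjusted p = 0.558).

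In the lists of astrocyte and neural stem cell and of neuroblast markers, *Gfap*, *Nes* and *Dcx* were detected on all 18 arrays. Of the other tested genes of these lists, *Prom1*, *Cd24a*, *Tnc* and *Fabp7* were detected on 9, 11, 15 and 16 arrays. The rest were detected on all 18, and *Thbs4*, *Dlx5* and *Tubb3* were not tested. *Prom1* was detected on 7 Tam-Idh1-KI and 2 control arrays and *Cd24a* on 8 Tam-Idh1-KI and 3 control arrays. Both thus passed the detection filter mainly through the mutant group, where they were higher. Markers of striatal and other neurons (10 of 12 tested) summed to 63633 to 81864 in Tam-Idh1-KI mice and 68156 to 84479 in controls. Cell types that make collagen in brain gave a mixed picture. Of 20 markers of meningeal and perivascular fibroblasts 13 were tested and 6 were positive, with a median log2 fold change of -0.0069 and 0 called. They had a summed signal of 2322 to 5554 in Tam-Idh1-KI mice, against 3197 to 4123 in controls. *Lum*, *Fmod*, *Slc22a6*, *Aldh1a2*, *Foxd1*, *Islr* and *Tbx18* of this list were not among the tested genes. Endothelial markers (13 of 15 tested, median 0.069) summed to 9790 to 19620 in Tam-Idh1-KI mice and 9225 to 16374 in controls. Of these 13, 12 were positive, against 54.5% of all tested genes, with 0 called. Mural markers (9 of 14 tested, 4 positive, median -0.031) summed to 2454 to 4971 in Tam-Idh1-KI mice and 2458 to 3606 in controls. Choroid plexus markers (11 of 18 tested, 4 positive, median -0.066) summed to 4195 to 11263 in Tam-Idh1-KI mice and 5265 to 9058 in controls.

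Ependymal markers had the highest median among the cell type lists. Of 20 ependymal genes 16 were tested and 15 were positive, against 54.5% of all tested genes. Their median log2 fold change was 0.35 with 0 called by limma, and they summed to a median of 27631 (17886 to 40049) in Tam-Idh1-KI mice, against 21418 (17925 to 29334) in controls. Neuroblast markers had a median of 0.21 (8 of 10 positive) and blood markers one of -0.33 (0 of 7 positive). *Cd24a*, which passed the detection filter mainly through the mutant group, is counted in both the ependymal and the neuroblast list. Positive were also 11 of 14 astrocyte and neural stem cell, 9 of 11 oligodendrocyte lineage and 9 of 10 microglia and macrophage markers. Of markers of striatal and other neurons 3 of 10 were. The part of these cell types in the collagen values was not tested. The arrays detected 46.3% to 50.7% of probes in Tam-Idh1-KI mice and 44.6% to 50.9% in controls. *Idh1* itself lay between 8.82 and 9.73 in Tam-Idh1-KI mice and between 9.26 and 10.03 in controls (-0.37, SE 0.10, adjusted p = 0.212 by limma), a signal that does not tell the mutant allele from the normal one.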

How the data were processed

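Total RNA of SVZ tissue from 18 mice was run on 18 Illumina Mouse WG6-v2 arrays over 2 days. The authors deposited an unnormalized intensity on a linear scale and a detection p-value for each probe. GenomeStudio is named in the submitters' processing notes without a version. They also deposited log2 values processed by an unstated method, which served as an alternative. The intensities were processed with neqc (limma 3.58.1, R 4.3.3): background correction by normexp using the detection p-values, an offset of 16, quantile normalization and log2. Of the array's probes 34885 had 1 gene symbol, 18 several and 10378 none; 18460 of the single-symbol probes passed the detection filter (9 arrays or more at 0.05), and each of 11465 genes was represented by its brightest. limma fitted genotype, hybridisation day and sex over 18 arrays, with Benjamini-Hochberg adjustment over all genes and a threshold of 0.05. The number of arrays limits the precision, and the median SE was 0.109 on the log2 scale.

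The members and gene lists were chosen with earlier results of these data known. Named were every called collagen gene and its partner chains, every undetected collagen gene, up to 3 tested genes per type by smallest unadjusted p and those detected on most control arrays, and 2 tested genes per pathway list; others were named after their values were seen. Both groups number their mice 1 to 9, and the study describes paired littermates. Deviations of same-numbered arrays correlated over 0.1 in 9 of 9 pairs (mean 0.481), though within days in 4 of 9 (mean 0.0505); the number as a block was an alternative. Alternatives were other background corrections, scalings, filters, probe choices and covariates, array weights, 1 day or 1 sex, the block, the methods' t-test and each array left out; median and spread scaling and log2 signal without offset were added after seeing the data. The pipeline was tested on simulated data. Protein sequences and probe sequences were not used here, and 0 sample columns were left unused.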

Additional observations from a re-analysis of the deposited data

Results flagged for a closer look

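Of 30 groups of 9 mice examined, 1 per collagen gene and genotype, 2 held a mouse that stood apart from the others, and chance gives about 1 in 20 such groups. Among Tam-Idh1-KI mice, replicate 6 had the highest *Col4a1* signal, 9.52 on the log2 scale, with the next at 9.11, a gap of 0.537 of the group's range, above Dixon's critical value. Among controls, replicate 1 had the lowest *Col5a1* signal, 5.12, with the next at 5.73, a gap of 0.517 of the range.

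Of the 9 type IV collagen probes that the comparison did not use, 4 were higher in Tam-Idh1-KI mice at an unadjusted p under 0.05 by limma and 0 lower, in a fit without the detection filter. Over all 76 unused collagen probes 5 were higher and 2 lower, 6.58% and 2.63%, against 2.73% and 3.29% of 23420 unused probes of all genes. The other 5 of type IV, 1 of *Col4a3*, 1 of *Col4a4* and 3 of *Col4a6*, had log2 fold changes between -0.024 and 0.058. For *Col4a4* a probe detected on 5 Tam-Idh1-KI and 2 control arrays gave a log2 fold change of 0.36 (adjusted p = 0.591 by limma), and one detected on 4 Tam-Idh1-KI and 0 control arrays gave 0.42 (adjusted p = 0.531 by limma). The second probe of *Col4a5*, detected on 8 Tam-Idh1-KI and 5 control arrays, gave 0.38 (adjusted p = 0.661 by limma). For *Col4a6* a probe detected on 1 Tam-Idh1-KI and 0 control arrays gave 0.26 (adjusted p = 0.549 by limma). None passed after adjustment over all genes or probes. The probes of *Col4a4* and *Col4a6* lie near the level of negative beads. The second *Col4a5* probe is dim too but passed the detection filter, on 13 arrays.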

How the results depend on the processing

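The call of *Col6a5* was not kept under every choice. Against 1 gene called higher, 0 were without background correction, with the filter at all 18 arrays (which drops *Col6a5*), on day 1, on day 2, in females, in males, with the replicate block, with the methods' t-test after Benjamini-Hochberg and on log2 signal without offset. Over all tested genes the main fit called 11 higher. On day 1 it was 1, and on day 2, in each sex and with the adjusted t-test 0, a general loss. It was 11 without background correction and 12 without offset, where the loss was not general. With the methods' t-test unadjusted, 2 collagen genes were higher (*Col4a5* and *Col6a5*) and 1 lower (*Col23a1*), against 3.2% and 1.49% of all tested genes. The log2 fold change of *Col6a5*, 0.86, was positive in all 21 alternatives run, from 0.26 without background correction to 1.13 in males, and its adjusted p was 0.0482 on the authors' log2 values, 0.0314 with median scaling, 0.0394 with cyclic loess, 0.0412 with no detection filter (0.0628 when adjusted over all single-symbol probes), 0.0614 without background correction, 0.0557 on log2 signal without offset, 0.459 on day 1, 0.434 on day 2, 0.509 in females, 0.122 in males and 0.104 with the replicate block. Leaving out single arrays gave 0 to 1 genes called higher and 0 called lower. The block changed no other call of a collagen gene.

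The median over tested basement membrane genes, 0.23, was 0.087 without background correction, 0.14 on the authors' values, 0.30 with median scaling, 0.16 on day 1, 0.42 on day 2, 0.17 in males and 0.091 on log2 signal without offset, and 0.20 to 0.25 with 1 array left out. That of beaded filament genes, 0.44, was the midpoint of 2 genes, *Col6a5* at 0.86 and *Col6a1* at 0.022. It was 0.14 without background correction, 0.15 on log2 signal without offset and 0.38 to 0.52 with 1 array left out. At all 18 arrays it was 0.022, that of *Col6a1* alone. That of transmembrane genes, -0.40, was also the midpoint of 2 genes, *Col23a1* at -0.61 and *Col25a1* at -0.18. It was -0.16 without background correction, -0.17 on log2 signal without offset and -0.22 with the probe detected on the most arrays. It was -0.18 on day 2, -0.25 in females and -0.53 to -0.31 with 1 array left out. That of fibril-associated genes, -0.13, was -0.046 without background correction, -0.051 on log2 signal without offset, -0.037 and -0.057 with median scaling and median and spread scaling, -0.014 at all 18 arrays, -0.20 with array weights, -0.0061 on day 1, -0.023 on day 2, -0.060 in males, -0.065 with the replicate block and -0.17 to -0.023 with 1 array left out. The median over all tested collagen genes, 0.10, was 0.21 with median scaling, 0.19 with median and spread scaling, -0.0083 in males and 0.047 to 0.15 with 1 array left out. The median of all tested genes was 0.12 with median scaling, against 0.013. Calls over all genes were 11 higher and 9 lower, or 16 and 7 with median scaling, 28 and 8 with median and spread scaling, 6 and 8 with cyclic loess, and 3 and 5 with the block.

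Estimates near 0 changed sign. *Col6a1* was at -0.023 as the mean of its probes, -0.047 with array weights, -0.050 in females and -0.032 with the replicate block. *Col18a1* was at -0.0051 with age in the model, -0.069 with array weights, -0.13 on day 2 and -0.052 in males. *Col4a1* was at -0.039 on day 1 and -0.10 in males, *Col7a1* at -0.059 on day 1 and -0.26 in males, and *Col16a1* at -0.060 in males. With 1 array left out *Col6a1* ranged over -0.062 to 0.090 and *Col18a1* over -0.11 to 0.13. *Col23a1* and *Col25a1* were negative, and *Col5a1*, *Col4a2*, *Col4a5*, *Col8a2* and *Col26a1* positive, in each alternative run. The causes were not tested.

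Dim probes limit these results: 26 of 41 collagen genes could not be tested, and *Col6a5* itself was detected on 12 of 18 arrays.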
